A study of Mus musculus with 9 samples.

Results

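Hematopoietic growth factor receptors are the cell surface proteins through which blood progenitors and their progeny read the cytokines that keep them alive and direct their lineage. The genes described here are Flt3 (Entrez gene 14255), Kit (16590), Csf1r (12978), Csf2ra (12982), Csf2rb (12983), Csf2rb2 (12984) and Csf3r (12986). They were chosen by symbol, with earlier results of these data known, and all 7 were among the 14862 genes of the table. Their RNA was measured by sequencing in 9 libraries of dendritic cells sorted from spleen, taken from C57Bl/6 animals 8 to 12 weeks old. There were 3 libraries each of the subsets labelled mcDC, type 1 conventional dendritic cells (cDC1) and type 2 conventional dendritic cells (cDC2). The labels name no mutation, transgene or treatment in any group, do not expand the abbreviation mcDC, and do not give the surface markers of the sort or say whether libraries came from separate mice.

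FLT3, KIT and CSF1R are receptor tyrosine kinases of one structural family, each of which dimerises around its ligand. Flt3 ligand drives dendritic cell development from the bone marrow into the spleen, KIT binds stem cell factor and marks progenitors and mast cells, and CSF1R, the receptor for CSF1 and IL-34, sustains monocytes and macrophages. The GM-CSF receptor is built of an alpha chain, CSF2RA, that binds the cytokine, and a beta common chain, CSF2RB, that signals through JAK2 and STAT5 and is shared with the receptors for IL-3 and IL-5. Mice carry an extra beta chain gene, Csf2rb2, whose product serves IL-3 only. CSF3R, the receptor for G-CSF, is best known from neutrophils.

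Levels are given in RPKM, in which the reads of a gene are divided by its length in kilobases and by the library total in M reads. Library totals were 5.14 to 8.22 M reads in mcDC, 9.68 to 11.01 M in cDC1 and 9.19 to 12.43 M in cDC2, and a single read on a 1 kb gene stood for 0.0805 to 0.195 RPKM. The mcDC library of replicate 3 was the shallowest and had 12.35% of genes at 0, where the other libraries had 2.71% to 6.47%. The titles are numbered, and every 3 successive numbers, here called a title run, contain each subset once. Replicates 1, 2 and 3 follow title runs 1, 2 and 3. What a title run shares is not given in the labels. The cDC1 and cDC2 identities were visible in their markers, and mcDC lay between them on both lists. The summed RPKM of 11 cDC1 markers was 770 to 1315 in mcDC, 2253 to 2687 in cDC1 and 411 to 438 in cDC2. That of 12 cDC2 markers was 922 to 1148 in mcDC and 1461 to 1547 in cDC2. In cDC1 replicates 1, 2 and 3 it was 419, 130 and 151. Among the cDC1 libraries, replicate 1 also had the highest Csf1r and Csf3r. The part of cDC2 RNA in these levels was not tested. As separate mice are not stated, the p-values reflect only how far libraries differ, and that may be technical.

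The sequences below show the region around the transcription start of 3 receptor genes whose levels differed between subsets or stood highest, Flt3, Csf3r and Csf2ra. Each holds 250 bases before and 50 after the start in RefSeq, build GRCm38.p6, and capitals mark the letters GAGGAA on either strand, the core recognised by the myeloid factor PU.1.
Flt3, chr5:147400440-147400739, minus strand: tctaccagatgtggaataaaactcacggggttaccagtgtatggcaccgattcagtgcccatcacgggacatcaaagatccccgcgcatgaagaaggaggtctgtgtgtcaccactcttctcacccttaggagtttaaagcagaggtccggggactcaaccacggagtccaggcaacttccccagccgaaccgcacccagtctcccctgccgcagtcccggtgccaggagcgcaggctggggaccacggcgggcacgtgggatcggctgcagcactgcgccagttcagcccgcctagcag
Csf3r, chr4:126024409-126024708, plus strand: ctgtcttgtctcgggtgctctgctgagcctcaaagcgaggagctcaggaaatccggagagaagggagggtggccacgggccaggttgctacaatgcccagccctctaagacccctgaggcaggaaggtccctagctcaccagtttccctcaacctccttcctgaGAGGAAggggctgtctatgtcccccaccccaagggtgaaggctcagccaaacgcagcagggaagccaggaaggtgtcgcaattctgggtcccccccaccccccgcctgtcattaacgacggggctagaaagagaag
Csf2ra, chr19:61228369-61228668, minus strand: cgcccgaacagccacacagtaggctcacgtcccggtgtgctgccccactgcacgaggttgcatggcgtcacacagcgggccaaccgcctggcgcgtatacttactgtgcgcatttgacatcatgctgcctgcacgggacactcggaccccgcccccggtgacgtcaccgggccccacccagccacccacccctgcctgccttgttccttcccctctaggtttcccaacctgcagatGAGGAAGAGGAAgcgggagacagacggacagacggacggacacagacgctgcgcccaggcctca
GAGGAA was absent from the Flt3 window, began 86 bases before the start in Csf3r, and occurred in 2 adjoining copies beginning 14 and 8 bases before the start in Csf2ra. Of 32851 RefSeq promoter windows of this length, 28.3% held these letters on either strand. Windows of 5 of the 7 genes were searched, and those of Kit and Csf2rb2, not printed, also held the letters. In none of the 5 was there a RUNX core (TGTGGT, held by 16.8% of all windows on either strand), a GATA core (spelled AGATAA, held by 11.2%), a CCAAT box (held by 37.4%) or a TATA box (spelled TATAAA, held by 13.6%).

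The paired beta chain genes are shown because part of their sequence is shared. The coding sequences of Csf2rb and Csf2rb2 (GENCODE M21, 2688 and 2634 bases without the stop codon) were identical at 2503 of 2628 aligned bases (95.2%), and 26.0% of the 50-base windows and 286 of 2589 windows of 100 bases of Csf2rb also occurred in Csf2rb2. The stretch of 90 bases below is the one with the most differences, 16, which are in capitals. It covers coding bases 308 to 397 of Csf2rb and 311 to 400 of Csf2rb2, both on chromosome 15.
Csf2rb: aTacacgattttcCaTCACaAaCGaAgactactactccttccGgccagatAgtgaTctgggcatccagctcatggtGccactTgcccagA
Csf2rb2: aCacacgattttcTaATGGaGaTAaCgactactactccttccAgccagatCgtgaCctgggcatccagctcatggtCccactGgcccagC
How the authors' counting treated reads that fit both genes was not given in the sources used here, so the levels of this pair are uncertain.

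Every receptor except Csf3r had a mean above that of at least 71.9% of tested genes in each subset. Csf2ra and Flt3 had the highest means in mcDC and in cDC1, while Csf2ra and Csf1r had the highest means in cDC2. The mean of Csf2ra exceeded that of 98.0% of tested genes in mcDC, 98.5% in cDC1 and 98.4% in cDC2. Csf3r stood above 36.3% of tested genes in mcDC, 8.81% in cDC1 and 77.4% in cDC2. The 7 transcripts summed to 588 to 744 RPKM in mcDC, 727 to 770.1 in cDC1 and 838 to 849 in cDC2.

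**Figure D1:**
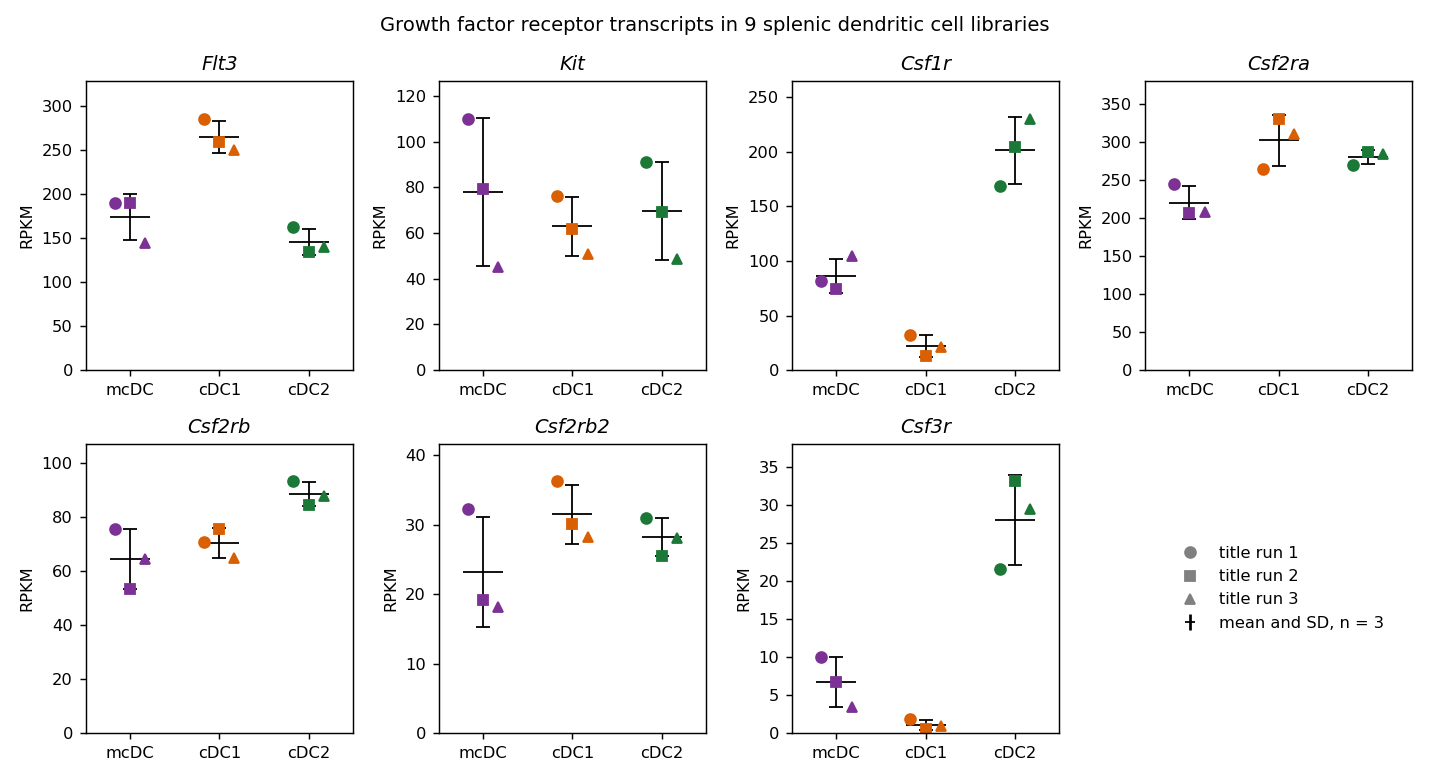
Level of each receptor transcript in RPKM on linear axes, 1 point per library, with the point's shape giving the title run and bars giving the mean and SD of 3 libraries per subset. Csf1r and Csf3r are highest in the 3 cDC2 libraries and lowest in the 3 cDC1 libraries, Flt3 is highest in cDC1, and Kit is spread as widely within subsets as between them.

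Differences were tested with limma on log2(RPKM + 1) in 1 fit of all 9 libraries over 11971 genes, with p-values adjusted over all of them by the Benjamini and Hochberg method and a threshold of 0.05. All 7 receptors passed the filter of more than 1 RPKM in at least 2 libraries, Csf3r through its mcDC and cDC2 libraries. Between mcDC and cDC1, 2 receptors were higher and 2 lower in mcDC, where 9.53% of all genes tested were higher and 5.88% lower (15.4% in either direction). Between mcDC and cDC2, 1 receptor was lower and 0 higher in mcDC, where 1.6% of genes were lower and 2.06% higher (3.66% in either direction). At an unadjusted p under 0.05 the receptors lower in mcDC than in cDC2 were Csf1r, Csf2ra, Csf2rb and Csf3r. Between cDC1 and cDC2, 1 receptor was higher and 2 lower in cDC1, where 8.85% of genes were higher and 10.7% lower (19.6% in either direction). In each comparison the libraries did not overlap for 4 of the 7 receptors, where this held for 30.5% of all genes between mcDC and cDC1, 21.6% between mcDC and cDC2 and 46.1% between cDC1 and cDC2. Between mcDC and cDC2 all 4 lay lower in mcDC, as did 7.7% of all genes. The 3 comparisons share libraries and are not independent of each other.

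**Figure D2:**
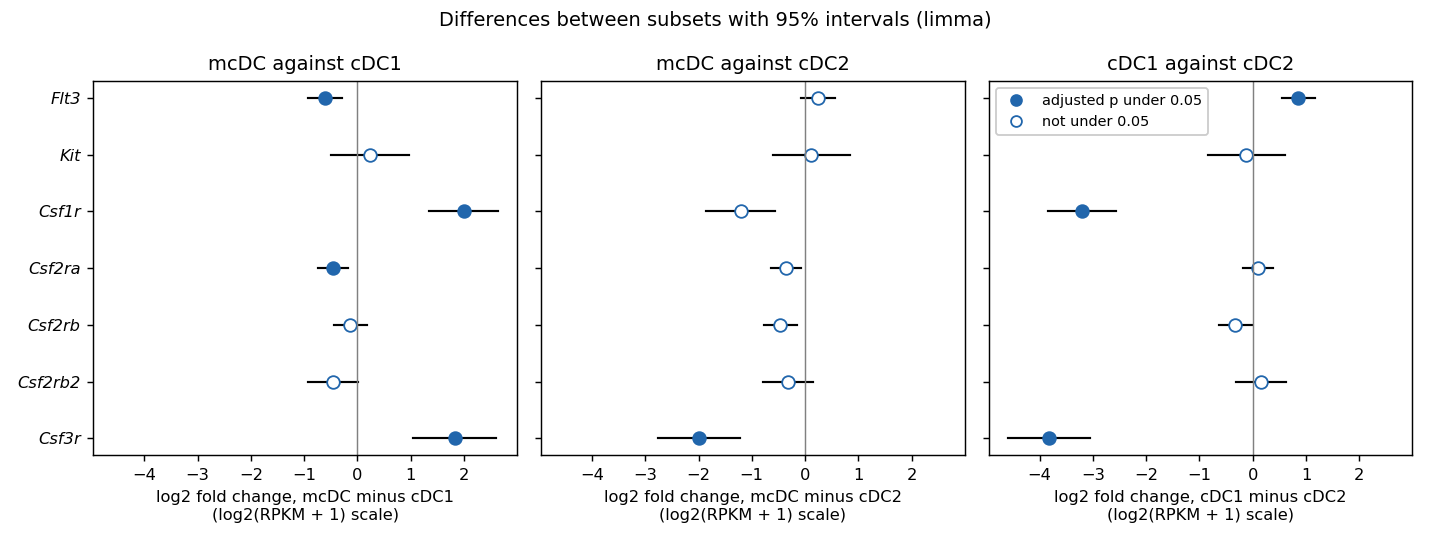
Log2 fold change of each receptor on the log2(RPKM + 1) scale in the 3 comparisons, with lines for the 95% interval and filled points for limma adjusted p under 0.05. Csf1r and Csf3r lie right of 0 for mcDC against cDC1 and far left of 0 for cDC1 against cDC2, and the intervals of Kit span 0 in every comparison.

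RPKM were not rescaled for composition. Under median-of-ratios scaling the median gene's log2 fold change shifted by -0.121 for mcDC against cDC1 and by -0.099 for mcDC against cDC2. Of the calls between mcDC and cDC1, 46.5% were higher in mcDC with this scaling and 61.8% without it, and of those between mcDC and cDC2, 42.8% with it and 56.4% without it. Relative to the median gene, receptors that were lower in mcDC were therefore somewhat lower still, and the 7 receptors kept their directions under both this and quantile normalization in all 3 comparisons.

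Flt3, the receptor through which Flt3 ligand supports dendritic cells, was highest in cDC1. It was at 189, 189.7 and 144 RPKM in mcDC replicates 1, 2 and 3, at 286, 259 and 250 RPKM in cDC1, and at 163, 134 and 140.5 RPKM in cDC2. All cDC1 libraries stood above all others, and the mcDC and cDC2 libraries overlapped. The mean was 174 ± 26.3 RPKM in mcDC, 265 ± 18.6 in cDC1 and 146 ± 14.9 in cDC2 (SD, n = 3 each). The log2 fold change was -0.61 ± 0.14 (SE) for mcDC against cDC1 (limma adjusted p = 0.018) and 0.86 ± 0.14 for cDC1 against cDC2 (adjusted p = 0.0021). For mcDC against cDC2 it was 0.25 (95% interval -0.07 to 0.57, adjusted p = 0.42), so these neighbours in the order were not separated. The difference between mcDC and cDC1 missed the threshold without cDC1 replicate 1 (0.061), without cDC1 replicate 2 (0.065) and with these subsets fitted alone (0.058), with 0.0047 to 0.065 over the 18 alternatives tried. Within title runs 1, 2 and 3, the ratio of mcDC to cDC1 was 0.663, 0.733 and 0.576, and that of cDC1 to cDC2 was 1.76, 1.93 and 1.78.

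Kit, the stem cell factor receptor, was detected in all 9 libraries, and no difference between subsets passed. It was at 110.0, 79.1 and 45.3 RPKM in mcDC replicates 1, 2 and 3, at 76.4, 61.7 and 50.7 RPKM in cDC1, and at 91.2, 69.3 and 48.5 RPKM in cDC2. In each subset the library of title run 1 was highest and that of title run 3 lowest, which made the ranges of all subsets overlap. These values rest on 1281 to 4974 reads per library. The mean was 78.1 ± 32.3 RPKM in mcDC, 62.9 ± 12.9 in cDC1 and 69.7 ± 21.3 in cDC2 (SD, n = 3 each). The log2 fold change was 0.24 for mcDC against cDC1 (95% interval -0.49 to 0.97, limma adjusted p = 0.69), 0.12 for mcDC against cDC2 (-0.61 to 0.85, adjusted p = 0.89) and -0.12 for cDC1 against cDC2 (-0.85 to 0.61, adjusted p = 0.87). Within title runs 1, 2 and 3, the ratio of mcDC to cDC1 was 1.44, 1.28 and 0.893. Of the 11971 genes tested, 6.79% were, like Kit, ordered from title run 1 down to title run 3 in every subset, and Kit was the only receptor among them.

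Other cell types known to bear KIT were followed by their markers. The 9 mast cell and basophil markers in the table, of 13 listed, summed to 2.20 to 6.27 RPKM in mcDC, 5.01 to 6.92 in cDC1 and 4.80 to 8.61 in cDC2. Their mast cell protease Cpa3 did not exceed 0.936 RPKM in any library. Progenitor markers other than the receptors, 13 of 14 in the table, summed to 40.0 to 54.8 RPKM in mcDC, 63.7 to 84.8 in cDC1 and 25.2 to 33.9 in cDC2. Limma called 2 of them higher and 2 lower in mcDC than in cDC1, where 9.53% and 5.88% of all genes were called. Cd34 and Meis1 were the 2 higher, and Procr and Myb the 2 lower. Against cDC2, 2 were higher and 0 lower in mcDC, where 2.06% and 1.6% of all genes were. Cd34, a surface sialomucin of progenitors, was at 3.08 to 3.32 RPKM in mcDC, 0.502 to 0.726 in cDC1 and 0.869 to 1.01 in cDC2. Procr was at 8.13 to 12.5 RPKM in mcDC, 26.6 to 35.7 in cDC1 and 6.25 to 11.6 in cDC2. The 9 innate lymphoid cell markers in the table, of 10 listed besides Kit, summed to 336 to 622 RPKM in mcDC, 478 to 619 in cDC1 and 146 to 182 in cDC2, most of it Id2, which dendritic cells also express. The part of such cells in the level of Kit was not tested.

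**Figure D3:**
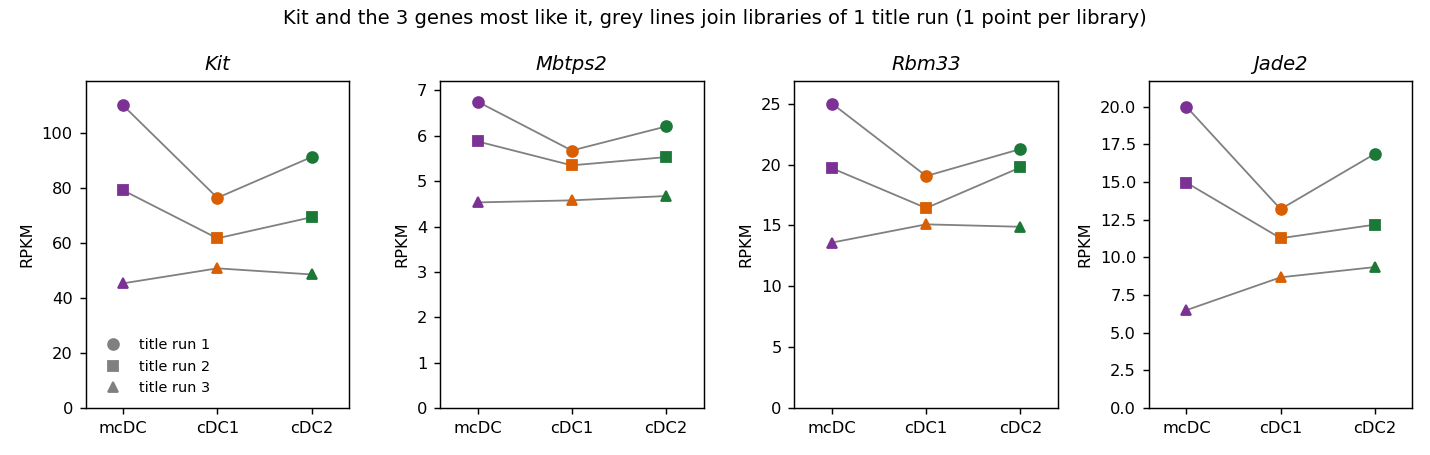
Kit and the 3 genes whose level followed it most closely, in RPKM on linear axes, 1 point per library, with grey lines joining the libraries of 1 title run across the subsets. For each of the 4 genes the lines of the 3 title runs do not cross, with title run 1 on top and title run 3 at the bottom. The 3 genes were picked for their likeness to Kit in these same libraries, so their order is not separate support.

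Csf1r, the CSF1 and IL-34 receptor, differed most in absolute level. It was at 81.6, 74.3 and 104 RPKM in mcDC replicates 1, 2 and 3, at 32.5, 12.7 and 21.5 RPKM in cDC1, and at 169, 204 and 230.3 RPKM in cDC2. The 3 subsets formed separate ranges, with mcDC between the others. The mean was 86.7 ± 15.5 RPKM in mcDC, 22.2 ± 9.91 in cDC1 and 201 ± 30.8 in cDC2 (SD, n = 3 each), so that mcDC carried 3.9 times the cDC1 level. The log2 fold change was 1.99 ± 0.29 (SE) for mcDC against cDC1 (limma adjusted p = 0.0016) and -3.20 ± 0.29 for cDC1 against cDC2 (adjusted p = 5.9e-05). For mcDC against cDC2 it was -1.21 ± 0.29 (95% interval -1.85 to -0.56) with an adjusted p of 0.053, just short of the threshold. That value ranged from 0.020 to 0.20 over the 18 alternatives tried, of which 8 passed, among them both rescalings for composition, a block for title runs (0.032, with 6.46% of all genes called between mcDC and cDC2 in that fit), and the fits without mcDC replicate 3 (0.048), cDC1 replicate 1 (0.023) or cDC1 replicate 2 (0.020).

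Csf3r, the G-CSF receptor, followed the same order at lower levels. It was at 9.94, 6.66 and 3.39 RPKM in mcDC replicates 1, 2 and 3, at 1.80, 0.535 and 0.925 RPKM in cDC1, and at 21.6, 33.1 and 29.4 RPKM in cDC2. No library of one subset reached into the range of another. The cDC1 values rest on 25 to 84 reads and the mcDC values on 74 to 347. The mean was 6.67 ± 3.28 RPKM in mcDC, 1.09 ± 0.648 in cDC1 and 28.0 ± 5.88 in cDC2 (SD, n = 3 each). The log2 fold change was 1.82 ± 0.34 (SE) for mcDC against cDC1 (limma adjusted p = 0.0065), -2.00 ± 0.34 for mcDC against cDC2 (adjusted p = 0.013) and -3.82 ± 0.34 for cDC1 against cDC2 (adjusted p = 6.2e-05). On this scale the change is understated, since cDC1 levels are close to the pseudocount of 1, and the ratio of mean RPKM was 6.13 for mcDC over cDC1 and 0.0388 for cDC1 over cDC2. The difference between mcDC and cDC2 missed the threshold without cDC2 replicate 2 (0.079) and without cDC2 replicate 3 (0.065), with 0.0066 to 0.079 over all alternatives.

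Markers of the blood cells in which these myeloid receptors are textbook genes also differed between the subsets. In bulk libraries, more cells of a type and more RNA per cell cannot be told apart. The 14 neutrophil markers in the table, of 15 listed, summed to 36.5, 40.2 and 60.3 RPKM in mcDC replicates 1, 2 and 3, to 13.6, 23.3 and 48.8 in cDC1, and to 185, 998 and 1694 in cDC2. Limma called 2 of them higher in mcDC than in cDC1, 7 lower in mcDC than in cDC2 and 11 lower in cDC1 than in cDC2, where 9.53%, 1.6% and 10.7% of all genes were called in these directions. With voom on recovered reads, 2, 0 and 5 of them were called in these comparisons. Camp, Lcn2, Mmp8, Retnlg and Stfa2l1 would not have passed the filter on low values without their cDC2 libraries, where they were highest. Their calls against cDC2 are therefore not independent of the filter. Across the cDC2 libraries the neutrophil sum spanned a 9.13-fold range and Csf3r a 1.53-fold range, and across the mcDC libraries the library with the highest neutrophil sum had the lowest Csf3r. Camp, a neutrophil granule peptide, was at 0 in all 3 mcDC libraries. S100a8, an abundant cytosolic protein of granulocytes, was measured at 0.619 to 21.3 RPKM in mcDC, 1.62 to 14.2 in cDC1 and 60.2 to 632 in cDC2. Mmp9 and Il1r2 were the 2 called higher in mcDC than in cDC1. Mmp9 was at 24.35, 15.33 and 7.40 RPKM in mcDC replicates 1, 2 and 3, falling as Csf3r did. It was at 0.114 to 0.390 RPKM in cDC1 and 18.5 to 40.5 in cDC2. Il1r2 was at 5.60, 3.61 and 6.935 RPKM in mcDC replicates 1, 2 and 3, 0.0767 to 0.607 in cDC1 and 8.90 to 10.16 in cDC2. The part of neutrophil RNA in the level of Csf3r was not tested.

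For Csf1r, monocyte and macrophage markers ran in different orders. All 15 monocyte markers were in the table and summed to 741 to 887 RPKM in mcDC, 368 to 545 in cDC1 and 1662 to 2561 in cDC2. Lyz2, lysozyme, was at 201 to 219 RPKM in mcDC, 84.0 to 116 in cDC1 and 698 to 1462 in cDC2. All 17 macrophage markers were in the table and summed to 477 to 886 RPKM in mcDC, 125 to 179 in cDC1 and 210 to 260 in cDC2. Of the 16 tested, limma called 14 higher in mcDC than in cDC1, where 9.53% of all genes were, and 10 higher in mcDC than in cDC2, where 2.06% were, and called 0 lower in mcDC. Siglec1, among the 14, exceeded 1 RPKM only in mcDC libraries. It thus passed the filter only through the subset where it was highest. Adgre1, which encodes F4/80, was nevertheless at 45.1 to 64.4 RPKM in mcDC, 1.76 to 6.97 in cDC1 and 87.6 to 95.7 in cDC2, with an adjusted p of 0.23 for mcDC against cDC2. Csf1r was thus highest in the subset with the highest monocyte sum, and was lower in all mcDC libraries, which had the highest macrophage sums, than in any cDC2 library. The part of monocyte or macrophage RNA in the level of Csf1r was not tested.

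**Figure D4:**
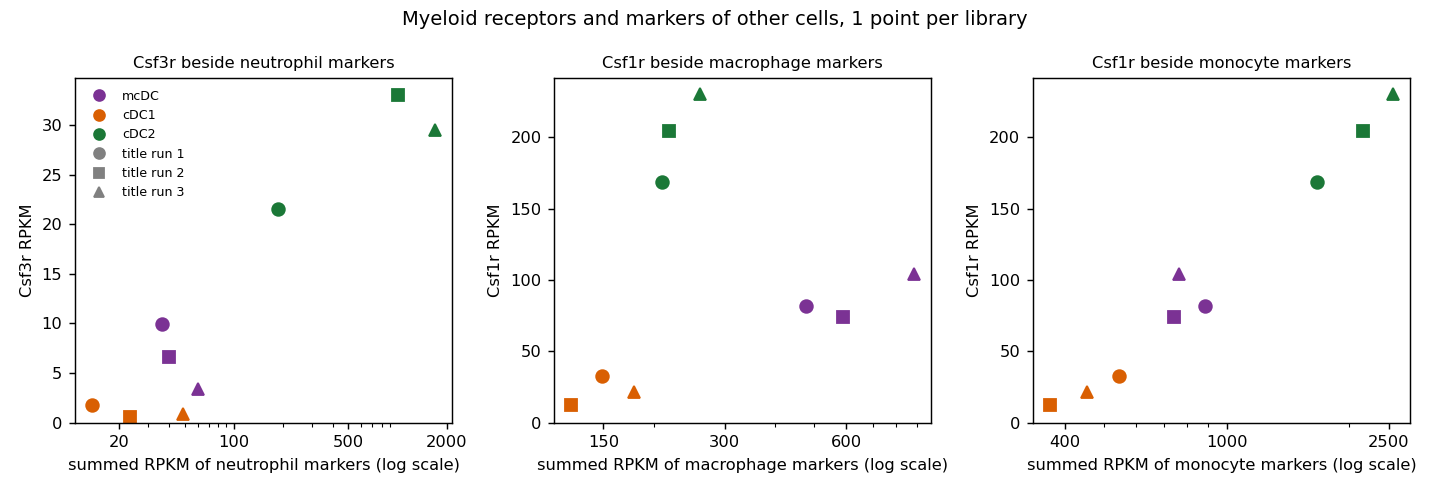
Csf3r beside the summed neutrophil markers, and Csf1r beside the summed macrophage and monocyte markers, 1 point per library, with receptor RPKM on linear axes and marker sums in RPKM on log axes. The cDC2 libraries have the highest neutrophil and monocyte sums and the highest Csf3r and Csf1r, and the mcDC libraries have the highest macrophage sums with Csf1r of 74.3 to 104 RPKM.

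The GM-CSF receptor chains were expressed in all subsets and differed little. Csf2ra, the alpha chain, was at 245, 206 and 209 RPKM in mcDC replicates 1, 2 and 3, at 265, 331 and 311 RPKM in cDC1, and at 270.0, 287 and 285 RPKM in cDC2. The mcDC libraries were all below the others, while cDC1 and cDC2 overlapped. The mean was 220 ± 21.7 RPKM in mcDC, 302 ± 33.6 in cDC1 and 280.5 ± 9.11 in cDC2 (SD, n = 3 each). The log2 fold change was -0.46 ± 0.13 (SE) for mcDC against cDC1 (limma adjusted p = 0.038), -0.35 (95% interval -0.64 to -0.07, adjusted p = 0.19) for mcDC against cDC2, and 0.10 (-0.18 to 0.39, adjusted p = 0.68) for cDC1 against cDC2. The call against cDC1 was lost under 10 of the 18 alternatives, with 0.012 to 0.16 over all of them. These were quantile normalization (0.055), no trend in the prior variance (0.056), the subsets fitted alone (0.12), and leaving out mcDC replicate 2 (0.11) or 3 (0.05), cDC1 replicate 2 (0.16) or 3 (0.13), or cDC2 replicate 1 (0.061), 2 (0.075) or 3 (0.065).

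Csf2rb, the beta common chain, was at 75.6, 53.3 and 64.3 RPKM in mcDC replicates 1, 2 and 3, at 70.7, 75.6 and 64.6 RPKM in cDC1, and at 93.1, 84.4 and 87.6 RPKM in cDC2. The cDC2 libraries stood above all others, and mcDC and cDC1 overlapped. No difference passed: the log2 fold change was -0.14 (95% interval -0.44 to 0.17) for mcDC against cDC1 (limma adjusted p = 0.57), -0.46 (-0.77 to -0.16) for mcDC against cDC2 (adjusted p = 0.11) and -0.33 (-0.64 to -0.02) for cDC1 against cDC2 (adjusted p = 0.14). The comparison with cDC2 passed without mcDC replicate 1 for mcDC (0.027), and with the subsets fitted alone for cDC1 (0.027).

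Csf2rb2, the beta chain of the IL-3 receptor, was at 32.3, 19.2 and 18.1 RPKM in mcDC replicates 1, 2 and 3, at 36.2, 30.05 and 28.2 RPKM in cDC1, and at 30.9, 25.5 and 28.1 RPKM in cDC2. The mcDC library of replicate 1 lay among the other subsets and the remaining mcDC libraries lay below them. The log2 fold change was -0.46 (95% interval -0.93 to 0.00) for mcDC against cDC1 (limma adjusted p = 0.17), -0.31 (-0.78 to 0.15) for mcDC against cDC2 (adjusted p = 0.50) and 0.15 (-0.32 to 0.62) for cDC1 against cDC2 (adjusted p = 0.71). Without mcDC replicate 1 it passed against cDC1 (0.011) and against cDC2 (0.048), and it passed against cDC1 when title runs were fitted as blocks (0.049). In that fit 20.7% of all genes were called between mcDC and cDC1.

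Ratios between receptors within a library do not depend on its depth. The ratio of Csf1r to Flt3 was 0.431, 0.392 and 0.723 in mcDC replicates 1, 2 and 3, 0.114, 0.0492 and 0.0858 in cDC1, and 1.04, 1.52 and 1.64 in cDC2. Flt3 thus exceeded Csf1r in every mcDC and cDC1 library and Csf1r exceeded Flt3 in every cDC2 library. The ratio of Csf3r to Csf1r averaged 0.0814 ± 0.0453 in mcDC, 0.0468 ± 0.0074 in cDC1 and 0.139 ± 0.0196 in cDC2 (SD, n = 3 each), so the G-CSF receptor stayed well below the CSF1 receptor in all libraries. The ratios to Flt3 and to Csf1r were chosen after their values were seen and were not tested.

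The alpha chain exceeded the beta common chain in every library. The ratio of Csf2ra to Csf2rb was 3.24, 3.86 and 3.24 in mcDC replicates 1, 2 and 3, 3.75, 4.37 and 4.81 in cDC1, and 2.90, 3.40 and 3.25 in cDC2. The ratio of Csf2rb2 to Csf2rb averaged 0.356 ± 0.0726 in mcDC, 0.449 ± 0.059 in cDC1 and 0.319 ± 0.0146 in cDC2 (SD, n = 3 each), with all cDC1 libraries above all cDC2 libraries. The ratio between these near-identical genes carries the uncertainty of their counting.

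**Figure D5:**
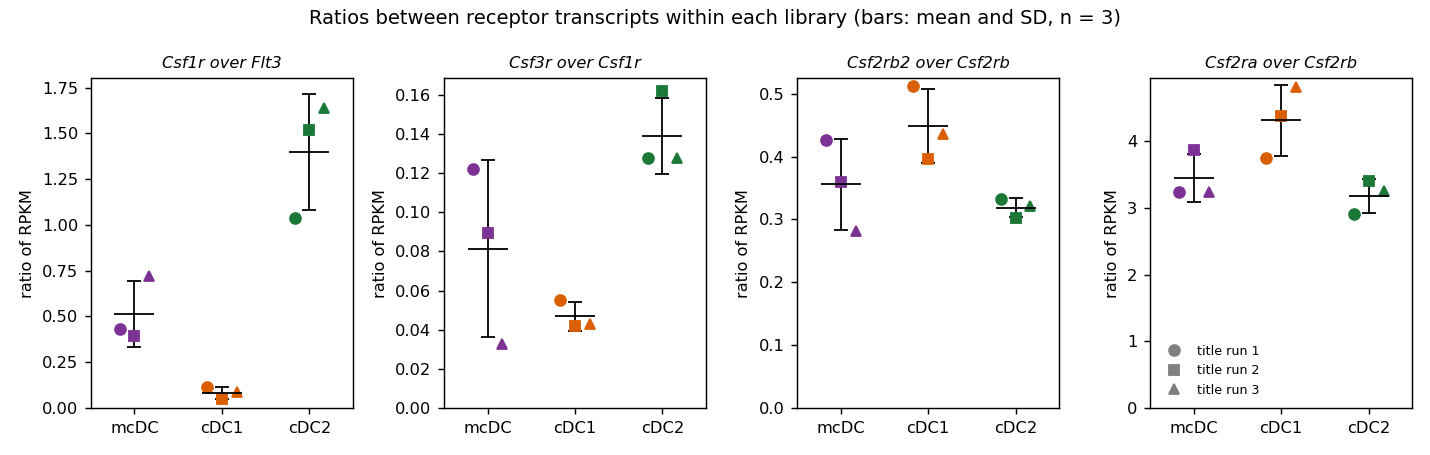
Ratios of RPKM between receptor transcripts within each library on linear axes, 1 point per library shaped by title run, with bars for the mean and SD of 3 libraries per subset. The ratio of Csf1r to Flt3 is above 1 in the 3 cDC2 libraries and below 1 in the 6 others, and the ratio of Csf2ra to Csf2rb is 2.90 or more in all 9.

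Of 8 listed ligands of these receptors, Flt3l and Csf1 passed the filter on low values. Flt3l, Flt3 ligand, was at 15.7, 16.9 and 36.1 RPKM in mcDC replicates 1, 2 and 3, at 8.52, 6.03 and 8.65 RPKM in cDC1, and at 18.5, 19.5 and 18.5 RPKM in cDC2. Its level was higher in mcDC than in cDC1 (1.37 ± 0.28 on the log2 scale with its SE, limma adjusted p = 0.0098) and lower in cDC1 than in cDC2 (-1.20 ± 0.28, adjusted p = 0.014), the reverse of the order of Flt3 between these subsets. Csf1 was at 0 to 0.773 RPKM in mcDC, 1.99 to 2.67 in cDC1 and 0.900 to 1.60 in cDC2, and was called lower in mcDC than in cDC1 (-1.43 ± 0.26, adjusted p = 0.0052). Kitl, stem cell factor, did not exceed 0.997 RPKM in any library, and the other 5 ligands, looked up by symbol, were not in the table. Of the other alpha chains that pair with the beta common chain, Il3ra was at 24.1 ± 7.12 RPKM in mcDC, 14.7 ± 1.92 in cDC1 and 19.7 ± 3.06 in cDC2, and Il5ra at 1.04 ± 0.203, 1.01 ± 0.167 and 0.678 ± 0.488 RPKM. The count called was 0 of 2 in every comparison, by limma on RPKM and by voom on recovered reads, and 1, Il3ra between mcDC and cDC1, at an unadjusted p under 0.05 (limma adjusted p of 0.061 to 0.58 for Il3ra and 0.49 to 0.97 for Il5ra).

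The lists of signalling and regulatory genes below are to be read against all genes tested. Of these, 9.53% were called higher and 5.88% lower in mcDC than in cDC1, 2.06% higher and 1.6% lower in mcDC than in cDC2, and 8.85% higher and 10.7% lower in cDC1 than in cDC2. Of 35 proximal adaptors and kinases tested, 7 were higher and 2 lower in mcDC than in cDC1, 0 higher and 2 lower in mcDC than in cDC2, and 3 higher and 15 lower in cDC1 than in cDC2. The median log2 fold change of the list was 0.21, -0.12 and -0.35 in these comparisons, where that of all genes tested was 0.09, 0.06 and -0.02. Tyrobp, the DAP12 adaptor, was at 747 ± 241 RPKM in mcDC, 396 ± 58.5 in cDC1 and 1047 ± 210.3 in cDC2 (limma adjusted p = 0.04 for mcDC against cDC1 and 0.0032 for cDC1 against cDC2). Fgr, a SRC family kinase, was at 120.5 ± 8.07, 36.7 ± 11.9 and 199 ± 21.6 RPKM. Pik3cb, a PI3 kinase catalytic subunit, had the other order, at 44.1 ± 9.69 RPKM in mcDC, 67.0 ± 5.41 in cDC1 and 37.9 ± 5.64 in cDC2 (adjusted p = 0.047 for mcDC against cDC1 and 0.01 for cDC1 against cDC2). The adaptor Shc1 was likewise highest in cDC1, at 30.8 ± 1.54, 44.4 ± 3.34 and 32.5 ± 0.832 RPKM.

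Of 9 JAK and STAT genes tested, 1 was higher and 1 lower in mcDC than in cDC1, 0 were called between mcDC and cDC2 by limma on RPKM or by voom on recovered reads (1, Tyk2, at an unadjusted p under 0.05), and 1 was higher and 2 lower in cDC1 than in cDC2. Among all genes, 15.4% were called in either direction between mcDC and cDC1, 3.66% between mcDC and cDC2 and 19.6% between cDC1 and cDC2. Jak2, the kinase bound to the beta common chain, was at 161 ± 45.9 RPKM in mcDC, 110.1 ± 10.3 in cDC1 and 131 ± 15.7 in cDC2 and did not pass (adjusted p = 0.13 for mcDC against cDC1). Jak3 was lowest in cDC1, at 27.9 ± 4.82 RPKM in mcDC, 14.98 ± 2.08 in cDC1 and 30.2 ± 4.43 in cDC2, and Tyk2 was highest there, at 60.9 ± 7.02, 83.1 ± 9.68 and 46.6 ± 0.735 RPKM. Of 14 STAT5 target genes tested, 5 were higher and 0 lower in mcDC than in cDC1, 1 higher and 0 lower in mcDC than in cDC2, and 3 higher and 6 lower in cDC1 than in cDC2. The shares of all genes in these directions were 9.53% and 5.88%, 2.06% and 1.6%, and 8.85% and 10.7%. The STAT5 targets did not move as 1 group: Socs2 was highest in cDC1, at 20.7 ± 2.55 RPKM in mcDC, 33.3 ± 3.42 in cDC1 and 11.5 ± 5.79 in cDC2, while Ccnd1, cyclin D1, was lowest there, at 151 ± 50.9, 49.8 ± 8.94 and 164 ± 18.1 RPKM.

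Of 27 negative regulators tested, 7 were higher and 3 lower in mcDC than in cDC1, 2 higher and 1 lower in mcDC than in cDC2, and 4 higher and 9 lower in cDC1 than in cDC2. Over all genes the shares higher and lower were 9.53% and 5.88%, 2.06% and 1.6%, and 8.85% and 10.7% in the same comparisons. Ptpn6, the SHP-1 phosphatase, was at 271 ± 13.4 RPKM in mcDC, 125 ± 23.3 in cDC1 and 352 ± 23.1 in cDC2. Cblb, a ubiquitin ligase, was at 14.4 ± 0.996, 28.3 ± 4.03 and 11.9 ± 2.18 RPKM in the same subsets, and Inpp5d, the SHIP1 lipid phosphatase, at 92.8 ± 18.6, 145 ± 7.75 and 96.1 ± 6.39 RPKM. Spry2, an inhibitor of receptor tyrosine kinase signalling, was higher in mcDC than in both conventional subsets, at 6.98 ± 2.66, 1.26 ± 0.344 and 0.643 ± 0.258 RPKM (limma adjusted p = 0.0018 against cDC1 and 0.0035 against cDC2).

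Transcription factors known to act on the receptor genes in blood cells were compared as a list of 27 tested genes. Of these, 11 were higher and 1 lower in mcDC than in cDC1, 3 higher and 1 lower in mcDC than in cDC2, and 3 higher and 8 lower in cDC1 than in cDC2. All genes gave shares of 9.53% higher and 5.88% lower, 2.06% and 1.6%, and 8.85% and 10.7%. Cebpb, a C/EBP factor of myeloid cells, was at 14.9 ± 5.43 RPKM in mcDC, 4.02 ± 1.16 in cDC1 and 50.5 ± 6.63 in cDC2, and its 3 differences all passed (limma adjusted p = 0.0026, 0.0074 and 2.4e-05 for mcDC against cDC1, mcDC against cDC2 and cDC1 against cDC2). Cebpa was at 14.5 ± 0.812, 4.39 ± 1.21 and 15.3 ± 0.649 RPKM in mcDC, cDC1 and cDC2. Myb, a progenitor factor, was at 7.15 ± 0.317 RPKM in mcDC, 16.5 ± 0.56 in cDC1 and 2.20 ± 0.46 in cDC2, and it too passed in all 3 comparisons (adjusted p = 0.0011, 0.0026 and 6.8e-06). Spi1, which encodes PU.1, was at 275, 293 and 317 RPKM in mcDC replicates 1, 2 and 3, at 216, 216 and 224 RPKM in cDC1, and at 310.4, 354 and 364 RPKM in cDC2 (adjusted p = 0.032 for mcDC against cDC1, 0.39 for mcDC against cDC2 and 0.0032 for cDC1 against cDC2). Spi1 was named after its values were seen, because its motif is marked in the promoter sequences above.

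Other cytokine and growth factor receptors of blood cells, 24 tested of 30 listed, included 8 higher and 2 lower in mcDC than in cDC1, 4 higher and 1 lower in mcDC than in cDC2, and 2 higher and 9 lower in cDC1 than in cDC2, beside shares of all genes of 9.53% higher and 5.88% lower, 2.06% and 1.6%, and 8.85% and 10.7%. Mertk and Axl, receptor tyrosine kinases for apoptotic cells, were at 13.6 ± 2.47 and 23.2 ± 3.57 RPKM in mcDC, 1.42 ± 0.405 and 4.99 ± 1.68 in cDC1, and 0.734 ± 0.110 and 8.10 ± 2.43 in cDC2. Flt1, a VEGF receptor kinase, was at 0.316 ± 0.316 RPKM in mcDC, 6.33 ± 0.711 in cDC1 and 1.08 ± 0.0648 in cDC2. Ifngr1, an interferon gamma receptor chain, was at 215 ± 12.0, 359 ± 22.3 and 290.5 ± 11.2 RPKM in the same subsets, and Il17ra at 56.7 ± 4.57, 30.7 ± 7.43 and 101 ± 10.6 RPKM. Il7r, the IL-7 receptor alpha chain, differed in all 3 comparisons, at 12.7 ± 1.53 RPKM in mcDC, 8.17 ± 1.56 in cDC1 and 4.54 ± 0.0508 in cDC2 (limma adjusted p = 0.039, 0.0046 and 0.014).

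For each receptor the genes of most similar pattern were taken by Pearson's r of log2(RPKM + 1) over the 9 libraries, among 8131 named genes, predicted genes left out, with a mean of at least 5 RPKM. The 9 libraries are 3 subsets in 3 title runs, so r reflects both and is given as a description. For Flt3 these were Strbp (0.984), Heatr9 (0.981) and Ly75 (0.977), the last encoding the DEC-205 uptake receptor and at 7.92 RPKM in mcDC, 46.5 in cDC1 and 4.57 in cDC2. For Csf1r they included Emb (0.995) and Ifitm6 (0.989). Csf3r was closest to Skint3 (0.993), Lrp1 (0.992) and Abca9 (0.990). Lrp1, an endocytic receptor, was at 12.7 RPKM in mcDC, 4.27 in cDC1 and 40.0 in cDC2.

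The genes closest to Kit were Mbtps2 (0.992), Rbm33 (0.984) and Jade2 (0.977). Mbtps2, a membrane protease, averaged 5.72 RPKM in mcDC, 5.20 in cDC1 and 5.47 in cDC2. Csf2ra was closest to Chaf1b (0.947), Parp12 (0.920) and Ifngr1 (0.918), Csf2rb to Plekhf2 (0.957), Mfsd6 (0.927) and Osbpl2 (0.924), and Csf2rb2 to Rps6kc1 (0.940), Mgrn1 (0.932) and the microRNA gene Mir7688 (0.930). Mir7688 varied widely between libraries of a subset. It was at 6.50, 0 and 0 RPKM in mcDC replicates 1, 2 and 3, 6.48 to 30.8 in cDC1 and 1.55 to 12.9 in cDC2. Among the receptors themselves, r over the 9 libraries was 0.945 between Csf1r and Csf3r, -0.918 between Flt3 and Csf1r, and 0.566 between Csf2rb and Csf2rb2.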

How the data were processed

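RNA was extracted from sorted cells and made into strand-marking libraries, per the labels' protocols. The authors deposited RPKM for 14862 genes in 1 table of 9 libraries, and in 8 files of single libraries that held identical values. No header states the unit, so it was inferred: within a gene, values are whole multiples of 1 step per library (100% of genes, tolerance 0.01 reads), and this gave the read totals. The build mm8 is in the submitters' processing notes, and the aligner, counter and annotation are not given in the sources used here. There were 0 columns of other samples.

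The receptors, the gene lists and the tests were chosen with earlier results of these data known. Tests were run in limma 3.58.1 (R 4.3.3) with a trend in the prior variance and 6 residual degrees of freedom. Named genes were the 7 receptors, up to 3 called members per list, comparison and direction with the largest change, the 2 of highest mean RPKM per list, and the 3 most similar genes per receptor, of which the text gives a selection. One of the genes similar to Csf1r is not reported here. Reference sequences of GRCm38 were used without coordinates from the files. Tables were handled in Python 3.11.15 with pandas 2.3.3, alignment was done in Biopython 1.88 and plots in matplotlib 3.10.9.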

Additional observations from a re-analysis of the deposited data

How the results depend on the processing

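The 21 receptor differences were recomputed under 18 alternatives. Of 378 values, 345 kept their direction and side of the threshold, 15 no longer passed, 13 passed only under the alternative and 5 changed sign. All 5 belong to Kit with 1 library left out, where its log2 fold change was -0.051 to 0.58 for mcDC against cDC1, -0.169 to 0.461 for mcDC against cDC2 and -0.353 to 0.096 for cDC1 against cDC2. None of these passed, and the cause was not tested. Flt3, Csf1r and Csf3r kept their calls between cDC1 and cDC2 under all 18, as did Csf1r and Csf3r between mcDC and cDC1.

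Over all genes, 1845 were called for mcDC against cDC1, 438 for mcDC against cDC2 and 2344 for cDC1 against cDC2. With the 2 subsets fitted alone the counts were 1097, 243 and 3724. With 1 library left out they ranged from 951 to 2601, from 158 to 896 and from 1547 to 3467. The count moved by over 1.5 times without cDC1 replicate 2 (951) or 3 (1133) for mcDC against cDC1, without mcDC replicate 1 (896) or cDC2 replicate 1 (279), 2 (158) or 3 (188) for mcDC against cDC2, and without cDC1 replicate 2 (1547) for cDC1 against cDC2. With the title run as a replicate block they were 2474, 773 and 2942. Libraries of the same title run deviated together from their subset means (r of 0.07 to 0.55 over 9 pairs and 8358 genes). Other pairs had -0.55 to 0.01, and 9 of 9 libraries correlated best with their own run. Deviations from a subset mean cancel within the subset, so positive values in same-run pairs bring negative values in other pairs. The values of other pairs are therefore not separate support. Not every same-run pair exceeded 0.1, so the shared deviation is a hint from the data, not a pairing in the design. The block changed the calls of Csf2rb2 between mcDC and cDC1 (adjusted p = 0.049) and of Csf1r between mcDC and cDC2 (0.032), and no other receptor's.

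Where a setting leaves a subset with 2 libraries, its spread is taken from the pooled fit. Depth limits Csf3r most, which rests on 25 to 84 reads in cDC1.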
